A study of Mus musculus with 24 samples.

Results

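The dependence of the acute morphine response of the ventral tegmental area (VTA) on the vitamin D receptor (VDR) was examined in 12 of the 24 mRNA libraries of the study. They were chosen by their labels alone, as all libraries of the VTA, and fall into 4 groups of 3 mice. Wild-type mice (VDR+/+) were injected with PBS (mice 1, 2 and 3) or with morphine sulfate (mice 1.0, 1.1 and 1.2), and mice without the receptor (Vdr-/-) with PBS (mice 7, 8 and 9) or morphine (mice 2.0, 2.1 and 2.2). All mice were on a C57BL/6 background, and morphine was given intraperitoneally at 5 mg/kg, 90 min before the tissue was taken. The mice lacking VDR grew up on food enriched in calcium, lactose and phosphate. The methods give no such food for wild-type mice, so that the genotype and the diet cannot be told apart. Age and sex were not given in the sources used here. The tissue was a pair of frozen punches, one from each side of the ventral midbrain, so each library mixed all cells of the punch.

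The VTA holds dopamine neurons, which make tyrosine hydroxylase (Th) and the dopamine transporter (Slc6a3), beside GABA and glutamate neurons and glia. Morphine acts on the μ-opioid receptor (Oprm1), which couples to inhibitory G proteins, lowers cyclic AMP and silences many GABA neurons, so that dopamine neurons fire more. Firing neurons switch on immediate early genes such as Fos, many of them through the cyclic AMP response element (CRE) and its binding protein CREB. VDR is a nuclear receptor that binds DNA with a retinoid X receptor partner once it has bound the active form of vitamin D.

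The response to morphine had the same direction in wild-type and Vdr-/- mice for most genes, and limma called no gene with a different response between the genotypes after correction for all genes tested, whereas DESeq2 on the same reads called 51, and limma without Vdr-/- PBS mouse 8 also called 51. Levels were compared as normalized read counts, the reads of a gene divided by the size factor of its library, and responses as the difference in log2(normalized count + 1) between morphine and PBS. The interaction is the response of Vdr-/- mice minus that of wild-type mice, so a positive value means a higher response in Vdr-/- mice. A library held between 12421680 and 30184172 reads on genes, and 16240 genes had a mean normalized count of at least 10 and were tested with limma.

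Vdr itself had 2 to 17 reads in each library and was not lower in Vdr-/- mice (3 to 17 reads with PBS and 6 to 12 with morphine), so it could not check the labels. The defining genes of VTA dopamine neurons were present in every library, but their level differed. The summed normalized count of 25 dopamine neuron genes was 80202 to 98631 in the wild-type PBS group and 16734 to 31218 in the wild-type morphine group. Without the receptor it was 29945 to 79545 with PBS and 28161 to 45036 with morphine. The first principal component of all genes carried 38.8% of the variance. It placed wild-type PBS libraries at -36.7 to -27.4, Vdr-/- PBS libraries at -30.9 to 1.09 and all 6 morphine libraries at 12.3 to 40.4, with the Vdr-/- PBS library of mouse 9 nearest to the morphine libraries. In the sample descriptions, though not in the table columns, the library names of the PBS mice carry a prefix that those of the morphine mice lack, and some PBS and morphine libraries share an index sequence. Whether both were prepared together was not given in the sources used here. The methods also give an earlier collection time for saline controls than the account of the sequencing does. Injection therefore cannot be told apart from library preparation or from the time of collection. In these bulk samples fewer cells of a type and less RNA per cell cannot be told apart.

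In wild-type mice, 3108 genes changed with morphine (adjusted p under 0.05), of which 1518 rose (9.35% of the genes tested) and 1590 fell (9.79%). In Vdr-/- mice 1322 changed, of which 660 rose (4.06%) and 662 fell (4.08%). Both counts moved by over 1.5 times with single libraries. The wild-type count was 1325 without morphine mouse 1.2, 2035 without 1.0, 1652 without PBS mouse 1 and 1740 without PBS mouse 3. The Vdr-/- count was 130, 373 and 557 when morphine mouse 2.1, 2.0 or 2.2 was left out, 162 and 637 when PBS mouse 7 or 9 was, and 2234 when wild-type morphine mouse 1.1 was. Both genotypes shared 714 of these genes, which is 23.0% of the wild-type genes and 54.0% of the Vdr-/- genes. Of the shared genes, 358 rose in both, 353 fell in both, and 3 had opposite signs. The genes with opposite signs were Nfkbia, the inhibitor of NF-kappaB, Pnpla3, a lipid droplet enzyme, and Oacyl, an acyltransferase-like gene, each higher with morphine in wild-type and lower in Vdr-/- mice.

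The responses of the genotypes were compared in direction and in size. Across the 16240 genes, the log2 responses of the genotypes correlated with a Pearson r of 0.604 and a Spearman rho of 0.554, and 71.8% of genes had the same sign. The genotypes share no library in this comparison, genes are not independent replicates, and both responses would carry any difference between PBS and morphine preparations. Responses were wider in wild-type mice, with a standard deviation over genes of 0.52 against 0.38 in Vdr-/- mice. Of the genes called in wild-type mice, 91.3% moved the same way in Vdr-/- mice, by a median of 0.539 of the wild-type response. The reverse comparison was less unequal. Of the genes called in Vdr-/- mice, 94.6% had the same sign in wild-type mice, at a median of 0.743 of the Vdr-/- response. Picking genes by their value in one genotype lowers their relative size in the other, so neither ratio is a test. Over the 714 genes called in both, r was 0.966 and the median ratio of the Vdr-/- to the wild-type response 0.963. These genes were picked by their values in both genotypes, so this agreement is not a test either. Among the 12524 genes called in neither, r was 0.350.

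**Figure D1:**
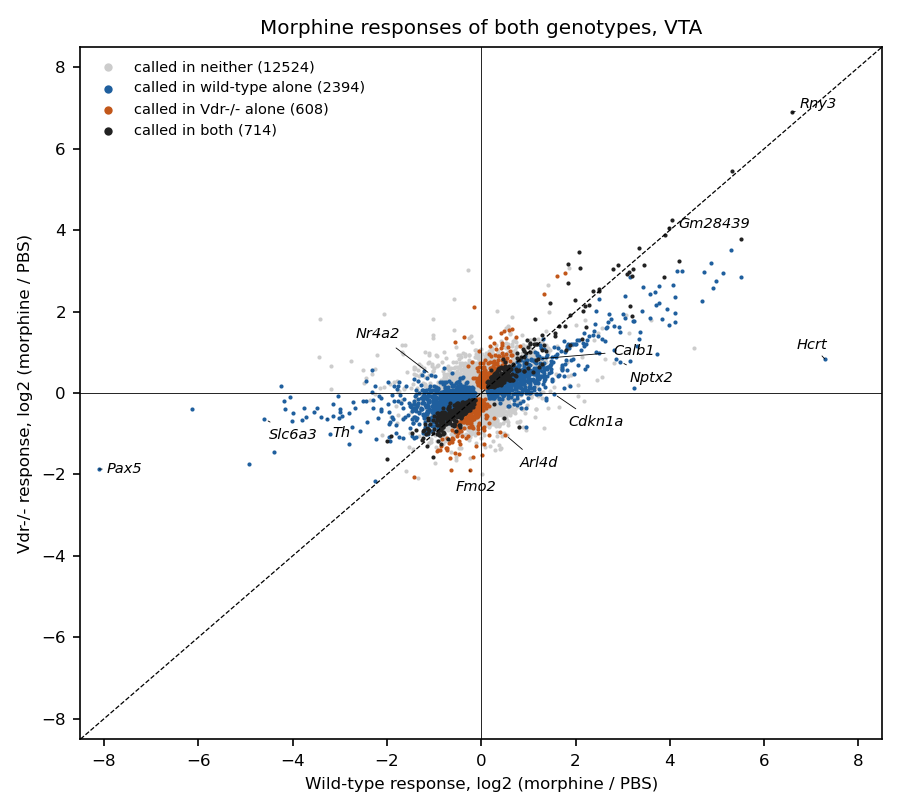
Each point is 1 of the 16240 genes tested, with the log2 response to morphine in wild-type mice on the horizontal axis and in Vdr-/- mice on the vertical axis, and the dashed line marks equal responses. Genes called in both (714) lie along the line, while most genes called in wild-type alone (2394) lie nearer to the horizontal axis, with Hcrt (7.29 and 0.84), Pax5 (-8.10 and -1.87) and Slc6a3 (-4.6 and -0.64) among the farthest from it in wild-type and Vdr-/- mice.

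Among immediate early genes, Fosb and Npas4 rose with morphine in both genotypes. Fosb encodes a Fos family subunit of the AP-1 transcription factor. Its normalized counts with PBS were 73.7, 63.4 and 68.1 in wild-type and 68.3, 55.1 and 90.4 in Vdr-/- mice. With morphine they were 192, 146 and 131 in wild-type and 155, 185 and 152 in Vdr-/- mice. Every morphine mouse was above every PBS mouse. The log2 response was 1.16 ± 0.19 (SE) in wild-type (adjusted p = 0.00322) and 1.21 ± 0.19 in Vdr-/- mice (adjusted p = 0.00655), and the interaction was 0.05 ± 0.26 with a 95% interval of -0.52 to 0.62. Npas4, a transcription factor induced by neuronal calcium entry, behaved alike. It had 119, 129.8 and 143 in wild-type PBS mice and 196, 173 and 194 with morphine, and 143, 110.2 and 165 with PBS and 233, 208 and 206 with morphine in Vdr-/- mice. All 6 morphine mice were again above all 6 PBS mice. Its responses of 0.52 ± 0.14 and 0.64 ± 0.14 both passed the test (adjusted p = 0.0228 and 0.0227), with an interaction of 0.12 ± 0.19 (95% interval -0.30 to 0.55). With the mean level of the dopamine neuron genes as a covariate in limma, the interaction was 0.55 ± 0.35 for Fosb. For Npas4 it was 0.62 ± 0.22 (unadjusted p = 0.0177). That covariate did not overlap between the injections in wild-type mice.

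The promoters of these 2 genes are shown because both rose in both genotypes and both contain TGACG, the core of the CRE, which CREB binds. The 250 bases before the start of transcription (RefSeq, GRCm38.p6) lie at chr7:19310046-19310295 for Fosb and chr19:4989972-4990221 for Npas4, both on the minus strand, and capitals mark TGACG on either strand.
Fosb: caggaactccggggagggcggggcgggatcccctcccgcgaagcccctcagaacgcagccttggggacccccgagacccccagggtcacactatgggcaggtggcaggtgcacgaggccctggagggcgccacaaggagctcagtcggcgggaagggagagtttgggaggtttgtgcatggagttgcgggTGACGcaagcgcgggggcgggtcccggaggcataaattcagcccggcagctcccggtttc
Npas4: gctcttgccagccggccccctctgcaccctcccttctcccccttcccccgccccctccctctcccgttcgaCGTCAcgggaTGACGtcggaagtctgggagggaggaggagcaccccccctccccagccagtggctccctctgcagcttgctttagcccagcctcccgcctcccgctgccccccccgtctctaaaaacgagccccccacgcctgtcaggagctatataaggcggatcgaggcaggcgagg
The core stands 60 to 56 bases before the start in Fosb. In Npas4 it stands at 169 to 165 bases, and on the opposite strand at 179 to 175 bases. TGACG was searched on both strands in the 250 bases before the start of every gene with a RefSeq promoter, and 17.6% of the 27025 promoters held it, as did 25.7% of those of the 11705 tested genes with a promoter. Of the cyclic AMP and CREB target genes 14 of 21 held it, of the early transcription factors 9 of 12, and of the Fos and Jun family 3 of 5. The full CRE, TGACGTCA, was in 1.56% of all promoters and in 3 of 21 of the CREB targets.

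Fos rose past the threshold in Vdr-/- mice alone. Its counts were 306, 224 and 231 with PBS and 322, 355 and 371 with morphine in wild-type mice, and 209, 152 and 244 with PBS and 447, 331 and 325 with morphine in Vdr-/- mice. The groups did not overlap in either genotype. The responses were 0.47 ± 0.18 (adjusted p = 0.086) and 0.87 ± 0.18 (adjusted p = 0.0202), and the interaction 0.41 ± 0.25 (95% interval -0.15 to 0.96). In the exact permutation test, two-sided, each response had p = 0.1, the smallest that 20 arrangements allow. In the exact permutation test the interaction had p = 0.495 with the injection permuted within genotype and p = 0.215 with the genotype permuted within injection, over 400 arrangements each with a smallest p of 0.005. By this test the response of Fos was therefore not shown to differ between the genotypes. In limma the interaction was 0.78 ± 0.36 with the dopamine neuron list as a covariate (unadjusted p = 0.057). With the hypothalamus list as a covariate it was 0.59 ± 0.27.

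Of the 5 tested members of the Fos and Jun family, 1 rose in wild-type and 2 in Vdr-/- mice. Of all genes, 9.35% and 4.06% rose, and no tested member of the family fell. The median log2 response was 0.47 in wild-type and 0.87 in Vdr-/- mice, against medians of 0.00 in both genotypes over all genes. Fosl2 had responses of 0.58 ± 0.40 and 0.92 ± 0.40 and Junb of 0.03 ± 0.18 and 0.46 ± 0.18, and none of these passed the test. Fosl1, Jund, Atf3 and Batf, the other members of the list, were too low to be tested, as was Egr2 among the early transcription factors.

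Of 17 early transcription factors, 4 rose and 1 fell in wild-type mice and 1 rose in Vdr-/- mice, against 9.35%, 9.79% and 4.06% of all genes. Their median interaction was 0.12, and none was called. Egr1 passed in wild-type and not in Vdr-/- mice, with responses of 0.43 ± 0.11 (adjusted p = 0.018) and 0.28 ± 0.11 (adjusted p = 0.118). Nr4a1, an orphan nuclear receptor of the same early wave, likewise had 0.62 ± 0.14 (adjusted p = 0.0114) and 0.23 ± 0.14 (adjusted p = 0.302). The interactions of Egr1 and Nr4a1 were -0.15 ± 0.15 and -0.39 ± 0.20, both with a 95% interval that included 0. Nr4a2, which dopamine neurons also need for their identity, fell by 1.06 ± 0.23 in wild-type mice (adjusted p = 0.00917) and was 0.45 ± 0.23 in Vdr-/- mice. Its interaction was 1.50 ± 0.32 in limma (unadjusted p = 0.000522), and was called by DESeq2 (adjusted p = 0.00696) and by limma without mouse 8 (adjusted p = 0.0369). It was 0.43 ± 0.24 with the dopamine neuron list, of which Nr4a2 is itself a member, as a covariate.

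Among 26 effector genes of synaptic activity, 6 rose and 1 fell in wild-type mice, against 9.35% and 9.79% of all genes. In Vdr-/- mice 4 rose and 2 fell, against 4.06% and 4.08%. These Vdr-/- calls depended on single mice. With 1 mouse left out, 0 to 6 rose and 0 to 2 fell there, and none of the 26 was called without PBS mouse 7. Only the prohormone convertase Pcsk1 rose in both (responses 0.53 ± 0.12 and 0.52 ± 0.12). Bdnf, a neurotrophin released with activity, had 274, 310.2 and 269 with PBS and 429, 455 and 516 with morphine in Vdr-/- mice, and 386, 285 and 351 with PBS and 466, 399.6 and 369 with morphine in wild-type mice. The groups overlapped in wild-type but not in Vdr-/- mice. Its response was 0.71 ± 0.12 in Vdr-/- mice (adjusted p = 0.0107) and 0.28 ± 0.12 in wild-type mice (adjusted p = 0.131), and the interaction 0.43 ± 0.17 (95% interval 0.06 to 0.81) did not pass correction and was 0.19 ± 0.25 with the dopamine neuron covariate. Inhba, a subunit of activin, likewise rose in Vdr-/- mice by 1.09 ± 0.19 (adjusted p = 0.0107), against 0.32 ± 0.19 in wild-type mice. Nptx2, a pentraxin that gathers AMPA receptors, rose in wild-type mice by 2.95 ± 0.40 (adjusted p = 0.00187) and had 0.77 ± 0.40 in Vdr-/- mice. Its interaction was -2.17 ± 0.57, and -0.40 ± 0.51 with the dopamine neuron covariate. DESeq2 called the interaction of Nptx2 (adjusted p = 0.00729), as did limma without mouse 8 (adjusted p = 0.0369).

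Among 26 targets of cyclic AMP and CREB, 9 rose and 2 fell in wild-type mice, against 9.35% and 9.79% of all genes, and 4 rose and 1 fell in Vdr-/- mice, against 4.06% and 4.08%, with medians of 0.36 and 0.32. With 1 mouse left out, 4 to 11 rose in wild-type and 1 to 6 in Vdr-/- mice, with the fewest without wild-type morphine mouse 1.2 and Vdr-/- PBS mouse 7. The median interaction was 0.01, 13 of the 26 were positive, and none of the 12 fits that left out a mouse moved the median beyond -0.15 to 0.07. Sik1, a kinase that restrains the coactivators of CREB, had responses of 0.51 ± 0.13 (adjusted p = 0.0169) and 0.38 ± 0.13 (adjusted p = 0.0789). Creb1 itself rose in Vdr-/- mice by 0.34 ± 0.07 (adjusted p = 0.0206), with 952, 971 and 944 against 1210.1, 1266 and 1159.7 and no overlap, and had 0.09 ± 0.07 in wild-type mice. Ppargc1a, a coactivator of mitochondrial genes, fell in both, by 0.53 ± 0.06 and by 0.30 ± 0.06.

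Chaperones of the endoplasmic reticulum (ER), which fold secreted proteins and rise in the unfolded protein response, were the list, of the 19 examined, with most genes raised in Vdr-/- mice. Of 21 tested, 6 rose and 1 fell in wild-type mice, against 9.35% and 9.79% of all genes. In Vdr-/- mice 13 rose and none fell, against 4.06% and 4.08%, and 5 rose in both genotypes. Median responses were 0.13 and 0.27. Hspa5, the main chaperone of the ER, had 4342, 3824 and 3549 with PBS and 5364, 4822 and 5009 with morphine in wild-type mice and 3522, 3296 and 3294 with PBS and 5538, 5095 and 4868 with morphine in Vdr-/- mice. All 6 morphine mice were above all 6 PBS mice. Its responses were 0.38 ± 0.07 (adjusted p = 0.00673) and 0.61 ± 0.07 (adjusted p = 0.00254). Hsp90b1, Hyou1, Manf and Pdia6 were the other 4 that rose in both genotypes. Hyou1, an ER chaperone of the Hsp70 class, had close responses (0.28 ± 0.05 and 0.27 ± 0.05), with an interaction of -0.01 ± 0.08 and a 95% interval of -0.17 to 0.16.

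The 8 that passed the test in Vdr-/- mice alone were Calr, Canx, Creld2, Dnajc3, Pdia3, Pdia4, Sdf2l1 and Xbp1. Members of the list that did not pass in Vdr-/- mice included Atf4, Ddit3, Dnajb9, Dnajb11, Edem1, Herpud1 and Sel1l, so the rise was not shared by the whole list. Xbp1 encodes a transcription factor of the unfolded protein response. It had 999, 1094 and 959 with PBS and 1401, 1265 and 1351 with morphine in Vdr-/- mice and 1304, 1157 and 1096 with PBS and 1318, 1228 and 1338 with morphine in wild-type mice. The groups separated in Vdr-/- mice and overlapped in wild-type mice. The response was 0.40 ± 0.07 in Vdr-/- (adjusted p = 0.0145) and 0.13 ± 0.07 in wild-type mice (adjusted p = 0.234). Of the 21 interactions 18 were positive, and 11 of these had an unadjusted p under 0.05, against 6.11% of all genes, and 2 of the negative ones did, against 4.6%. None passed correction. The PBS groups differed too. In 14 of the 21 genes all Vdr-/- PBS values lay below all wild-type PBS values, against 11.1% of all genes, while after morphine the median difference between the genotypes was 0.03. The PBS libraries enter both this comparison and the responses. The count that rose in Vdr-/- mice was 4 to 13 when 1 mouse at a time was left out, with 4 without morphine mouse 2.1 and 7 without morphine mouse 2.0 or PBS mouse 7, and 12 with the dopamine neuron covariate. With that covariate no gene of any kind was called in wild-type mice, and the list had medians of 0.10 in wild-type and 0.26 in Vdr-/- mice.

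The promoter of Hspa5 is shown because it contains the ER stress element, through which the unfolded protein response acts. It lies at chr2:34771840-34772089 on the plus strand (RefSeq, GRCm38.p6), and capitals mark that element and TGACG.
Hspa5: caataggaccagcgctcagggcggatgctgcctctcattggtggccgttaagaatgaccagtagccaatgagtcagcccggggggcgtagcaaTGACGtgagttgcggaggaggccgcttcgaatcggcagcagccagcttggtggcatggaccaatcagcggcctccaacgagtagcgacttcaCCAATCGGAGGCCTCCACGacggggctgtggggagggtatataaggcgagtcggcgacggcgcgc
The ER stress element, searched on both strands, stands 65 to 47 bases before the start, and TGACG 157 to 153 bases before it. The element was in 7 of the 18 ER chaperone genes with a promoter (Calr, Canx, Creld2, Dnajc3, Hsp90b1, Hspa5 and Pdia6), against 0.118% of all promoters and 0.145% of those of tested genes. All 7 rose in Vdr-/- mice, and of them Hsp90b1, Hspa5 and Pdia6 rose in wild-type mice. Pdia3, Pdia4, Sdf2l1 and Xbp1 rose in Vdr-/- mice with no match to the element in this window.

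Of 17 heat shock and cold-inducible genes, 2 rose in wild-type mice, against 9.35% of all genes, and 5 rose and 2 fell in Vdr-/- mice, against 4.06% and 4.08%. The median responses were -0.02 and 0.15, and 1 gene rose in Vdr-/- mice without PBS mouse 7 or without morphine mouse 2.1. Hsph1, a partner of Hsp70, rose in both, from 5323, 4933 and 4644 to 6639, 6446 and 6033 in wild-type and from 3883, 3897 and 4408 to 7023, 6042 and 5407 in Vdr-/- mice. The morphine mice of each genotype were above its PBS mice, with responses of 0.36 ± 0.09 and 0.59 ± 0.09 (adjusted p = 0.0179 and 0.00649). Chordc1, a cochaperone of Hsp90, also rose in both. The genes that fell were Cirbp and Rbm3, RNA-binding proteins that cells make more of when cooled. Cirbp had 869, 1001 and 913 with PBS and 800.5, 742 and 842 with morphine in wild-type mice, and 1306, 1046 and 1233 with PBS and 641, 623 and 743 with morphine in Vdr-/- mice. By their means, Vdr-/- mice went from the highest of the 4 groups to the lowest, and the PBS and morphine mice did not overlap in either genotype. The response was -0.83 ± 0.09 in Vdr-/- mice (adjusted p = 0.0017) and -0.22 ± 0.09 in wild-type mice (adjusted p = 0.117), and the interaction -0.61 ± 0.13 (95% interval -0.90 to -0.32, unadjusted p = 0.000628). For Rbm3 these values were -0.60 ± 0.07, -0.19 ± 0.07 and -0.41 ± 0.10.

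**Figure D2:**
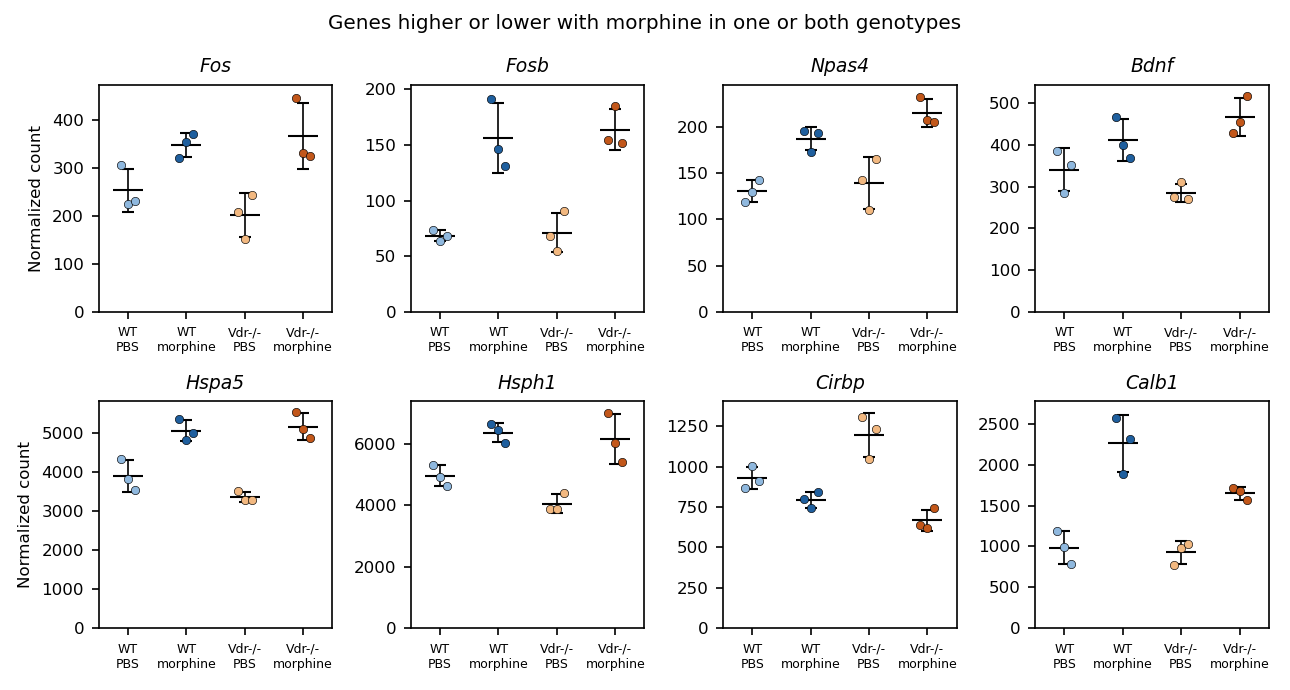
Normalized read counts of 8 genes in the 12 libraries, with 1 point per mouse and lines for the mean ± SD of the 3 mice of each group. Fosb, Npas4, Hspa5, Hsph1 and Calb1 were higher with morphine in both genotypes, and Cirbp fell in Vdr-/- mice from the highest PBS values. With all 12 libraries in the fit, Fos and Bdnf passed the test in Vdr-/- mice alone.

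The genes that changed most in both genotypes were short RNAs and mitochondrial copies rather than neuronal genes. Rny3 and Rny1 are Y RNAs, small noncoding RNAs bound by the Ro60 protein. Rny3 had 0.745, 0 and 0 with PBS and 154, 99.3 and 101 with morphine in wild-type mice, and 0, 1.45 and 0 with PBS and 39.8, 326 and 308 with morphine in Vdr-/- mice. All PBS libraries were near 0, and the responses of Rny3 and Rny1 were 6.60 ± 0.69 and 5.32 ± 0.81 in wild-type and 6.89 ± 0.69 and 5.45 ± 0.81 in Vdr-/- mice. Gm10222, Gm28439 and Gm10925, pseudogene copies of mitochondrial DNA in the nuclear genome whose reads cannot be assigned to the copy with certainty, rose by 3.88 to 4.25 in both genotypes, as did ATP8 of the mitochondrial genome by 3.34 ± 0.48 and 3.56 ± 0.48. The interactions of these 4 lay between -0.03 and 0.21. Preparation and injection cannot be told apart for them either.

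Ccdc180 and Lrrc71, genes of motile cilia, also rose in both, by 5.52 ± 1.02 and 4.19 ± 0.86 in wild-type and by 3.78 ± 1.02 and 3.25 ± 0.86 in Vdr-/- mice. Mouse 9 was the PBS mouse with most Ccdc180, at 41.3, beside 0 to 1.45 in the other 5 PBS mice. Markers of choroid plexus and ependyma were also higher with morphine. The summed normalized count of the 7 tested markers was 417 to 451 in wild-type PBS, 392 to 628 in Vdr-/- PBS, 512 to 1155 in wild-type morphine and 687 to 2754 in Vdr-/- morphine mice. The part of ependyma in these results was not tested.

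Genes lower in both genotypes included neuronal and glial ones. Pvalb, the calcium buffer of fast-spiking neurons, had 842, 573 and 774 with PBS and 191, 260.1 and 116 with morphine in wild-type mice, and 748, 759 and 486 with PBS and 298, 259 and 307 with morphine in Vdr-/- mice. No morphine mouse reached a PBS mouse of its genotype. It fell by 2.00 ± 0.26 and by 1.18 ± 0.26 (adjusted p = 0.00174 and 0.0245). Slc4a9, an anion exchanger, fell by 2.01 ± 0.35 and by 1.63 ± 0.35, and Cd180, a receptor of microglia and B cells, by 1.91 ± 0.26 and by 1.07 ± 0.26. Tmem125, a membrane protein of oligodendrocytes, and the noncoding B230206H07Rik and 9330111N05Rik fell in both by 1.01 to 1.58. Of 10 oligodendrocyte markers, 10 fell in wild-type mice, against 9.79% of all genes, and 4 in Vdr-/- mice, against 4.08%. Of 9 microglia markers, 8 fell in wild-type and 7 in Vdr-/- mice, and all 9 were lower in both. The Vdr-/- counts rested on single mice. With 1 mouse left out, 1 to 8 oligodendrocyte markers and 0 to 8 microglia markers fell there, with no microglia marker called when PBS mouse 7 was missing and 1 when morphine mouse 2.0 or 2.1 was. Median responses of the microglia markers over these fits were -0.70 to -0.42. The summed microglia markers were 6535 to 7572 and 5289 to 7192 in the PBS groups of wild-type and Vdr-/- mice and 3920 to 4422 and 4207 to 4762 in their morphine groups.

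No gene passed the test of the interaction (0% of 16240 called, smallest adjusted p = 0.283). Without correction, 1739 genes (10.7%) had p under 0.05, 992 of them positive (6.11%) and 747 negative (4.6%). edgeR on the recovered reads also called 0 genes, with 1838 at an unadjusted p under 0.05, whereas DESeq2 on the same reads called 51 (0.314%), 29 positive and 22 negative, with 1490 at an unadjusted p under 0.05. limma without the library of Vdr-/- PBS mouse 8 called 51 of 16324 genes (0.312%), 44 positive and 7 negative, of which 15 were among those of DESeq2. The median SE of an interaction was 0.15 and its median 95% interval, before correction, reached 0.335 to either side. Smaller differences between the responses could not be seen for a typical gene even without correction. Differences far beyond that also went uncalled in limma, such as 1.42 for Ltbp1 and -1.56 for Cdkn1a (adjusted p = 0.283 for both). An absence of calls at this size does not show that the responses were equal.

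The 10 positive and 10 negative genes with the smallest p among those with a mean count of at least 50 are described here. All 20 failed correction in limma (adjusted p of 0.283) and in edgeR (adjusted p of 0.285). DESeq2 called 16 of them. All 20 kept their sign in the 12 fits that left out 1 mouse and with either marker list as a covariate, although 6 lost over 20% of their size with the dopamine neuron list. That they were picked by p makes their sizes too large on average. The same choice makes a change of sign unlikely, so the kept signs are not further support.

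Nfkbia (chr12:55489410-55492647, protein-coding) encodes IκBα, which holds NF-kappaB in the cytoplasm. It had 278, 317 and 263 with PBS and 323, 506 and 392 with morphine in wild-type mice, and 473, 526 and 572 with PBS and 299.96, 363 and 362 with morphine in Vdr-/- mice. All wild-type morphine mice were above the wild-type PBS mice, and all Vdr-/- morphine mice were below the Vdr-/- PBS mice. It rose by 0.49 ± 0.15 in wild-type mice (adjusted p = 0.0376) and fell by 0.62 ± 0.15 in Vdr-/- mice (adjusted p = 0.0299), with an interaction of -1.10 ± 0.21 (95% interval -1.56 to -0.65, unadjusted p = 0.000187). The interaction was -1.26 to -0.94 when a mouse was left out and -1.25 with the dopamine neuron list as a covariate.

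The promoter of Nfkbia is shown because the gene is itself a classical target of NF-kappaB. It lies at chr12:55492648-55492897 on the minus strand (RefSeq, GRCm38.p6), and capitals mark the kappaB motif GGANNTTCC.
Nfkbia: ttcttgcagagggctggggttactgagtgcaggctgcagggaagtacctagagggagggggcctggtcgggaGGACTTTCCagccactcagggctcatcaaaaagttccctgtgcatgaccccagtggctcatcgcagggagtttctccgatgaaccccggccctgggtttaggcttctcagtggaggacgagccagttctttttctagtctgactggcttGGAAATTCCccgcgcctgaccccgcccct
The motif, searched on both strands, stands 178 to 170 and 29 to 21 bases before the start, the latter on both strands at once. Of all promoters 3.65% held it and of those of tested genes 3.78%. The short glucocorticoid receptor motif AGAACA was searched as well. It was in 16.2% of all promoters, in 10.7% of those of tested genes and in 3 of 28 promoters of the glucocorticoid-responsive genes (10.7%).

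Cdkn1a (chr17:29090976-29100727), which encodes the cell cycle inhibitor p21, had the lowest interaction of this group. Its counts were 246, 195 and 144 with PBS and 426, 684 and 588 with morphine in wild-type mice, and 558, 555 and 654 with PBS and 454, 623 and 689.96 with morphine in Vdr-/- mice. The wild-type PBS mice stood below all other groups, which overlapped. It rose by 1.54 ± 0.21 in wild-type mice (adjusted p = 0.00193) and had -0.02 ± 0.21 in Vdr-/- mice, and the interaction was -1.56 ± 0.30 (95% interval -2.21 to -0.90, unadjusted p = 0.000249). Galnt15, a Golgi enzyme that starts mucin-type sugar chains, had the smallest p. It had 142, 144 and 133 with PBS and 184, 244 and 202 with morphine in wild-type mice, and 243, 262 and 236 with PBS and 199.97, 204 and 187 with morphine in Vdr-/- mice. The direction was opposite in the genotypes, with no overlap between injections. Its interaction was -0.90 ± 0.15 (95% interval -1.22 to -0.59, unadjusted p = 5e-05).

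Hif3a and Arl4d showed the opposite weighting, with a fall in Vdr-/- mice. Hif3a, a hypoxia-inducible factor subunit, had 1136, 1191 and 1223 with PBS in Vdr-/- mice, above all other libraries, and 647, 747 and 960.3 with morphine. In wild-type mice it had 548, 559.5 and 529 with PBS and 570.1, 674 and 750.1 with morphine. It fell by 0.61 ± 0.13 in Vdr-/- mice (adjusted p = 0.0206), and its interaction was -0.89 ± 0.18 (unadjusted p = 0.000344). Arl4d, a small GTPase, fell by 1.02 ± 0.23 in Vdr-/- mice (adjusted p = 0.0248), from 518, 467 and 579 to 219, 232 and 325, and had 251, 266 and 158 with PBS and 239, 405 and 315 with morphine in wild-type mice, where the groups overlapped. Its interaction was -1.53 ± 0.32 (unadjusted p = 0.000477). The other negative genes were Pnpla3 (-0.55 ± 0.11), Cirbp, the teneurin Tenm3 (-0.46 ± 0.10), the phosphatase Ptpdc1 (-0.32 ± 0.07) and Os9 (-0.26 ± 0.06), a lectin of ER quality control.

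The positive genes fell with morphine in wild-type mice, all 10 past the threshold, and none passed the test in Vdr-/- mice. Ltbp1 (chr17:75005568-75392512), which binds latent TGF-β in the extracellular matrix, had 121, 128 and 122 with PBS and 92.2, 58 and 66.2 with morphine in wild-type mice, and 70.3, 95.7 and 75 with PBS and 101, 127 and 146 with morphine in Vdr-/- mice. The groups separated in opposite directions. Its responses were -0.80 ± 0.19 (adjusted p = 0.0139) and 0.62 ± 0.19 (adjusted p = 0.0598), and the interaction 1.42 ± 0.26 (95% interval 0.84 to 1.99, unadjusted p = 0.000178). Markers of the meninges had median responses in the same directions, -1.10 in wild-type and 0.31 in Vdr-/- mice, and all 10 interactions were positive. Of these 10, 2 fell in wild-type mice, against 9.79% of all genes. None rose or fell in Vdr-/- mice, against 4.06% and 4.08%. Their part in the result for Ltbp1 was not tested. Zfp36l2, which binds AU-rich elements and shortens the life of mRNAs, had an interaction of 0.79 ± 0.15 (unadjusted p = 0.000214). Of the 20 genes, Ltbp1, Zfp36l2, Ndnf and Cirbp passed correction both in DESeq2 and in limma without mouse 8.

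Arc, an activity-induced gene of the postsynapse, fell in wild-type mice, the direction opposite to Fosb and Npas4. It had 413, 388 and 492 with PBS and 266, 328 and 257 with morphine in wild-type mice, and 335, 315 and 367 with PBS and 406, 396 and 354 with morphine in Vdr-/- mice. Wild-type mice were lower with morphine with no overlap, while the groups overlapped in Vdr-/- mice. The responses were -0.60 ± 0.11 (adjusted p = 0.00562) and 0.18 ± 0.11 (adjusted p = 0.31), and the interaction 0.79 ± 0.16 (95% interval 0.44 to 1.14, unadjusted p = 0.000382). It was 0.69 to 0.89 when a mouse was left out and 0.81 with the dopamine neuron covariate.

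Calcrl, the receptor subunit for calcitonin gene-related peptide and adrenomedullin, and Fli1, an endothelial transcription factor, had interactions of 0.66 ± 0.13 and 1.07 ± 0.22. Markers of endothelial cells and pericytes moved with them. In wild-type mice 4 of 9 fell, against 9.79% of all genes. In Vdr-/- mice none rose or fell, against 4.06% and 4.08%. Their sum was 8223 to 8968 and 6090 to 7865 in wild-type PBS and morphine mice and 7232 to 8338 and 7125 to 7971 in Vdr-/- mice, and its part in the results for Calcrl and Fli1 was not tested. Erbb3, the neuregulin receptor of oligodendrocytes (0.73 ± 0.15), Ndnf, a secreted neurotrophic factor (1.71 ± 0.36), and St6galnac3, a sialyltransferase (0.58 ± 0.12), were smaller with the dopamine neuron covariate, at 0.35, 0.51 and 0.32. Gmpr2 (0.49 ± 0.09), a reductase of purine salvage, and Mob1a (0.35 ± 0.07), a subunit of the Hippo kinase complex, kept at least the size of the plain fit, at 0.57 and 0.41.

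**Figure D3:**
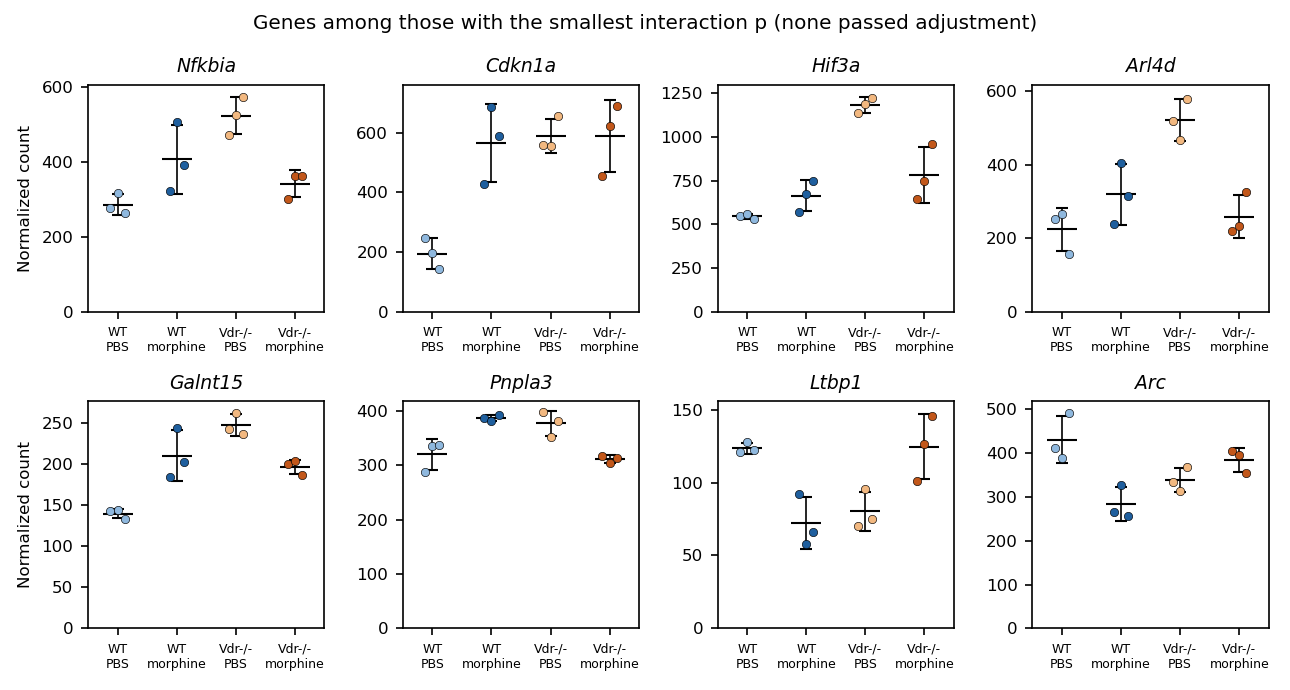
Normalized read counts of 8 genes among the 20 with the smallest interaction p, with 1 point per mouse and lines for the mean ± SD of the 3 mice of each group. Nfkbia, Galnt15 and Pnpla3 went up with morphine in wild-type and down in Vdr-/- mice, Hif3a and Arl4d were highest in Vdr-/- PBS mice, Cdkn1a was lowest in wild-type PBS mice, and Ltbp1 and Arc fell with morphine in wild-type mice.

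Glucocorticoid-responsive genes, which stress hormones switch on through the glucocorticoid receptor, had median responses of opposite sign in the genotypes. Of 32 genes, 7 rose and 1 fell in wild-type mice, against 9.35% and 9.79% of all genes. In Vdr-/- mice none rose and 5 fell, against 4.06% and 4.08%. The median log2 response was 0.28 in wild-type and -0.23 in Vdr-/- mice, and 29 of the 32 interactions were negative, 13 of them with an unadjusted p under 0.05, against 4.6% of all genes. Nfkbia, Cdkn1a and Hif3a belong to this list. Ddit4, an inhibitor of mTORC1, rose by 0.76 ± 0.15 in wild-type mice (adjusted p = 0.00685), from 566, 516 and 465 to 719, 1058 and 863, and had 781, 800.05 and 940.3 with PBS and 660.1, 738 and 937 with morphine in Vdr-/- mice. The wild-type groups separated and the Vdr-/- groups overlapped. Plin4, a lipid droplet coat protein, rose by 1.12 ± 0.24 and Map3k6, a stress kinase, by 0.70 ± 0.20 in wild-type mice, against 0.16 ± 0.24 and -0.28 ± 0.20 in Vdr-/- mice. Per1, a clock gene with a glucocorticoid response element, rose in wild-type mice by 0.28 ± 0.05 (adjusted p = 0.00634) and had -0.05 ± 0.05 in Vdr-/- mice.

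The difference lay in the PBS mice. All 3 Vdr-/- PBS mice were above all 3 wild-type PBS mice in 22 of the 32 genes (68.8%), against 9.46% of all genes, and below them in none. After morphine the Vdr-/- mice were above the wild-type mice in 4 (12.5%), against 7.04% of all genes. The median difference, Vdr-/- minus wild-type, was 0.54 with PBS and 0.07 with morphine. The same PBS libraries enter the responses, so these values are the responses seen from the other side and not further support. Sgk1, a kinase induced by corticosteroids, had 2594, 3086 and 1299.96 in wild-type and 4394, 4921 and 5486 in Vdr-/- PBS mice. With morphine it had 2737, 4623 and 3571 in wild-type and 3184, 3287 and 4112 in Vdr-/- mice. The PBS groups separated between the genotypes and the morphine groups overlapped. Its responses of 0.71 ± 0.27 and -0.49 ± 0.27 did not pass the test (adjusted p = 0.0881 and 0.262).

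Some members differed less between the genotypes. Fkbp5, a chaperone of the glucocorticoid receptor, rose in wild-type mice by 0.50 ± 0.16 (adjusted p = 0.0449) and had 0.29 ± 0.16 in Vdr-/- mice (adjusted p = 0.25). The metallothionein Mt1 fell in both, by 0.54 ± 0.17 and by 0.93 ± 0.17, and Zbtb16 and Nedd9 had interactions of 0.07 ± 0.25 and 0.14 ± 0.18. The median interaction of the list was -0.57 to -0.32 when 1 mouse was left out and -0.63 and -0.56 with the dopamine neuron and hypothalamus lists as covariates, with 27 to 31 genes negative in every fit that left out a mouse. The calls depended on single mice. Without Vdr-/- PBS mouse 7, morphine mouse 2.0 or morphine mouse 2.1 no gene of the list fell in Vdr-/- mice, and 1 did without PBS mouse 9. With the dopamine neuron or hypothalamus covariate none was called in wild-type mice, where the median response of the list was 0.39 and 0.35.

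Genes of dopamine neurons fell with morphine in wild-type mice and not past the threshold in Vdr-/- mice. Of 25 genes, 21 fell and 1 rose in wild-type mice, against 9.79% and 9.35% of all genes, with a median of -2.12. In Vdr-/- mice 1 rose and none fell, against 4.06% and 4.08% of all genes, with a median of -0.38. Of the interactions 24 were positive, 21 of them with an unadjusted p under 0.05, against 6.11% of all genes. The PBS groups differed here as well. In 13 of the 25 genes all Vdr-/- PBS values lay below all wild-type PBS values, against 11.1% of all genes. After morphine 14 lay above, against 7.04% of all genes, and 1 below. The same libraries enter the responses, so these values are not further support. Th had 7805, 6206 and 5980.3 with PBS and 603, 1199 and 447 with morphine in wild-type mice, and 3661, 5853 and 1063 with PBS and 1786, 1263 and 2706 with morphine in Vdr-/- mice. The wild-type groups were far apart, and the Vdr-/- PBS mice spanned both, with mouse 8 near the wild-type PBS level and mouse 9 below all 3 Vdr-/- morphine mice. Th fell by 3.27 ± 0.53 (adjusted p = 0.00345) and Slc6a3 by 4.6 ± 0.79 in wild-type mice, against -0.63 ± 0.53 and -0.64 ± 0.79 in Vdr-/- mice. The vesicular transporter Slc18a2, the decarboxylase Ddc and the receptor Drd2 had responses of -2.99 ± 0.51, -2.81 ± 0.45 and -1.69 ± 0.35 in wild-type and -0.38 ± 0.51, -0.50 ± 0.45 and -0.24 ± 0.35 in Vdr-/- mice. Their interactions were 2.61 ± 0.72, 2.32 ± 0.64 and 1.45 ± 0.50.

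Markers of several neighbouring tissues and cells changed in wild-type mice beside the dopamine neuron genes. Of 10 tested markers of the hypothalamus and mammillary nuclei, 2 rose in wild-type mice and none changed in Vdr-/- mice, with medians of 1.32 and 0.82, and their summed normalized count was 924 to 3158 in wild-type PBS, 4506 to 19624 in wild-type morphine, 1316 to 7243 in Vdr-/- PBS and 3586 to 6146 in Vdr-/- morphine mice. Avp, Oxt and Agrp of this list were too low to be tested. Hcrt, the orexin precursor of the lateral hypothalamus, had 1.49, 167 and 6.57 with PBS and 3084, 866 and 4489 with morphine in wild-type mice, and 935, 8.7 and 543 with PBS and 781, 558 and 63.6 with morphine in Vdr-/- mice. It was the largest rise in wild-type mice, at 7.29 ± 1.78. Pmch, another lateral hypothalamic peptide, ranged from 56.5 in Vdr-/- PBS mouse 8 to 12968 in wild-type morphine mouse 1.2. Pax5 and En1, transcription factors of the developing midbrain, fell in wild-type mice by 8.10 ± 1.12 and by 4.17 ± 0.69. Of the 7 tested markers of the interpeduncular nucleus and habenula, 5 fell in wild-type mice and none changed in Vdr-/- mice. Of 10 thalamus markers, 2 rose in wild-type mice and none changed in Vdr-/- mice, with medians of 0.66 and -0.12. Of 10 markers of midbrain GABA and glutamate neurons, 6 fell and 1 rose in wild-type mice, and 1 fell in Vdr-/- mice. Over all genes, 9.35% rose and 9.79% fell in wild-type mice, and 4.06% rose and 4.08% fell in Vdr-/- mice. The part of the tissue held by each punch in the responses was not tested. With the mean level of the dopamine neuron list as a covariate, no gene was called in wild-type mice, 854 were called in Vdr-/- mice, and none was called in the interaction, with 642 at an unadjusted p under 0.05. The covariate did not overlap between the injections in wild-type mice. The median SE of their response went from 0.11 to 0.22, and that of the interaction from 0.15 to 0.22. The loss of wild-type calls and the change of single interactions with this covariate therefore say nothing of the size of the responses.

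**Figure D4:**
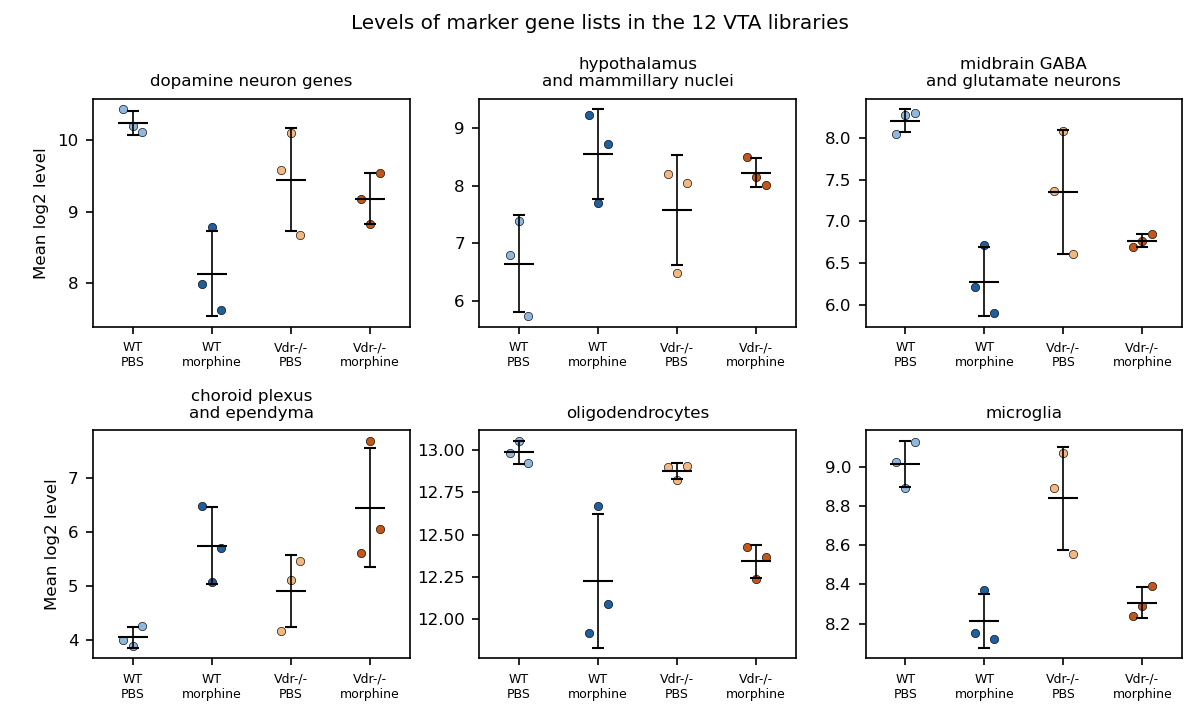
Mean log2(normalized count + 1) over the tested genes of 6 lists in each library, with 1 point per mouse and lines for the mean ± SD of the 3 mice of each group. Dopamine neuron genes had their lowest mean in wild-type morphine mice and spread widely over the Vdr-/- PBS mice, hypothalamic markers were lowest in the 3 wild-type PBS mice and in Vdr-/- PBS mouse 8, and oligodendrocyte and microglia markers were lower with morphine in both genotypes.

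Oprm1, the receptor of morphine, rose in wild-type mice by 0.61 ± 0.15 (adjusted p = 0.0154), from 191, 194 and 184 to 290.00, 268 and 311, and had 155, 149 and 186 with PBS and 231, 183 and 146 with morphine in Vdr-/- mice, where the groups overlapped. Its interaction of -0.43 ± 0.21 had a 95% interval of -0.88 to 0.02 and was -0.01 ± 0.27 with the dopamine neuron covariate. Pdyn, the precursor of dynorphin, rose in wild-type mice by 3.31 ± 0.63 and had 1.16 ± 0.63 in Vdr-/- mice. Its interaction was -2.15 ± 0.88, and 0.42 ± 0.90 with that covariate. Of 31 genes of Gi/o signaling and adenylyl cyclases, 12 rose and 1 fell in wild-type mice, against 9.35% and 9.79% of all genes, and 3 rose in Vdr-/- mice, against 4.06%. Their median interaction was -0.07, with 3 of 31 at an unadjusted p under 0.05 and none called. The 3 that rose in Vdr-/- mice were the cyclase Adcy3, β-arrestin 2 (Arrb2) and the G protein subunit Gng2, and all 3 rose in both. Rgs4, which speeds the shut-off of Gi/o proteins, had responses of 1.05 ± 0.18 (adjusted p = 0.00426) and 0.48 ± 0.18 (adjusted p = 0.117). Kcnj6, a potassium channel subunit of dopamine neurons opened by G proteins, fell by 0.68 ± 0.17 in wild-type mice. Its interaction was 0.95 in DESeq2 (adjusted p = 0.0366) and 1.23 in limma without Vdr-/- PBS mouse 8 (adjusted p = 0.0112). With the dopamine neuron covariate it was 0.25 ± 0.21.

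Of 14 genes of vitamin D action, 6 were high enough to be tested. Of these, 4 rose and 1 fell in wild-type mice, against 9.35% and 9.79% of all genes. In Vdr-/- mice 1 rose and 1 fell, against 4.06% and 4.08%. Calb1, calbindin, a calcium buffer and classical vitamin D target in the kidney, rose in both genotypes. Its counts went from 1188, 991 and 781 to 2572, 1887 and 2318 in wild-type mice. In Vdr-/- mice they went from 774, 981 and 1035 to 1715, 1680.2 and 1563. The groups did not overlap in either genotype. Its responses were 1.20 ± 0.15 (adjusted p = 0.00172) and 0.84 ± 0.15 (adjusted p = 0.0143), and the interaction was -0.36 ± 0.22 (95% interval -0.84 to 0.11). The 25-hydroxylase Cyp27a1 fell in both, by 0.90 ± 0.17 and by 0.67 ± 0.17. The receptor partners Rxra and Rxrg rose in wild-type mice by 0.21 ± 0.05 and 0.60 ± 0.14, against 0.05 ± 0.05 and 0.26 ± 0.14 in Vdr-/- mice. The catabolic enzyme Cyp24a1, the standard readout of VDR activity, had at most 10 reads in any library and was not tested.

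Of 19 circadian clock genes, 4 rose and 1 fell in wild-type mice and 3 rose and 4 fell in Vdr-/- mice, with 16 negative interactions, 5 of them at an unadjusted p under 0.05, against 4.6% of all genes. The shares over all genes were 9.35% and 9.79% in wild-type and 4.06% and 4.08% in Vdr-/- mice. No clock gene rose in Vdr-/- mice without PBS mouse 7, morphine mouse 2.0 or 2.1, and 1 fell. The output factor Dbp fell in both genotypes by 0.43 ± 0.07 and by 0.59 ± 0.07, and its antagonist Nfil3 rose in both by 0.59 ± 0.15 and 0.68 ± 0.15. Ciart, a repressor of the clock, fell in Vdr-/- mice by 0.73 ± 0.15 and had 0.17 ± 0.15 in wild-type mice, while the repressor Nr1d1 rose in Vdr-/- mice by 0.32 ± 0.06 and had -0.03 ± 0.06 in wild-type mice.

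**Figure D5:**
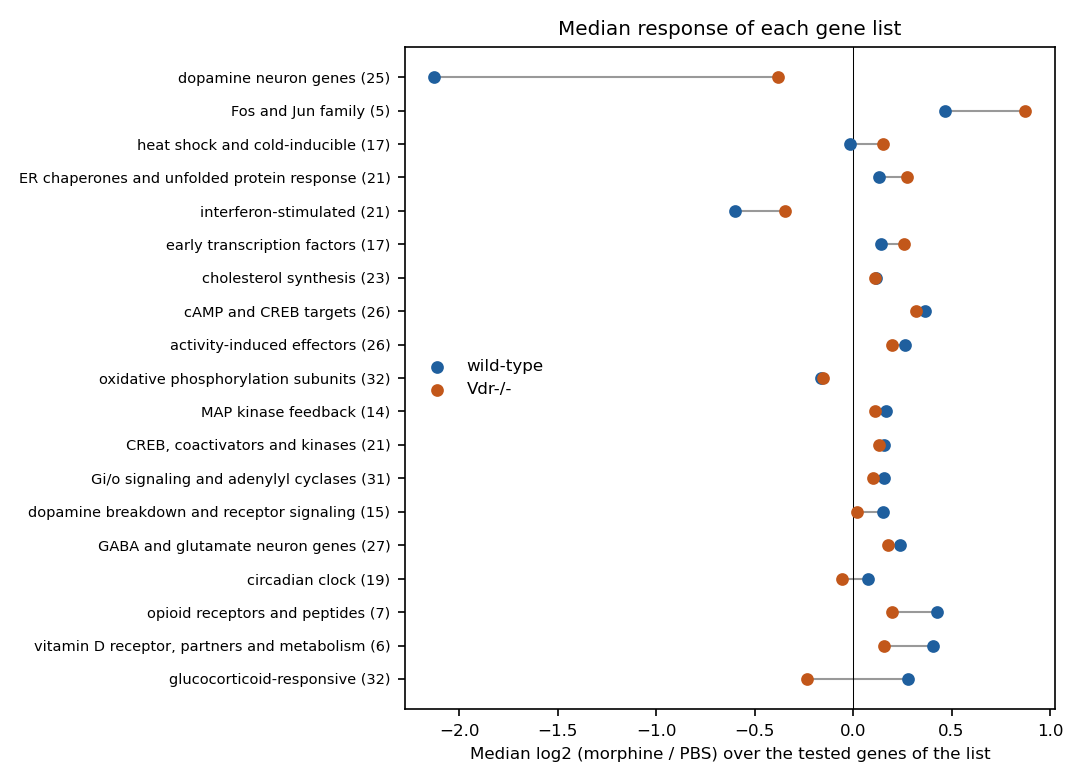
Median log2 response to morphine over the tested genes of each list (number in brackets) in wild-type and Vdr-/- mice. The 19 lists other than marker lists are shown, ordered by the median interaction from the highest to the lowest. Dopamine neuron genes (-2.12 and -0.38) and glucocorticoid-responsive genes (0.28 and -0.23) stand at the ends, and CREB targets, effectors and oxidative phosphorylation genes had close medians in both genotypes.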

How the data were processed

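mRNA was sequenced from VTA punches of 12 mice, 3 in each of 4 groups taken from the sample labels. The submitters' processing notes name CASAVA 1.8, Trimmomatic 0.36 and STAR 2.4.2a. The authors deposited a table for the PBS mice and another for the morphine mice, with values in units of signal, that is gene read counts divided by size factors of their own table. Whole reads were recovered from these deposited values for 100% of values (tolerance 0.01), the tables were joined on 28459 gene identifiers (99.8% in GENCODE M21, GRCm38), and a gene absent from a table was set to 0 (1512 from the PBS and 1792 from the morphine table). Columns of other regions were not used.

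Recovered reads were divided by median-of-ratios size factors over the 12 libraries. log2(value + 1) of genes with a mean of at least 10 was fitted with limma 3.58.1 (R 4.3.3, trend) over all 4 groups, and p-values were adjusted by Benjamini and Hochberg, with calls at 0.05. edgeR 4.0.16 and DESeq2 1.42.0 on the recovered reads were alternatives, with other scalings, filters, pseudocounts and left-out mice. A covariate for the level of the dopamine neuron or hypothalamus list, and protein-coding genes only, were added after seeing the data. The fit was tested on simulated data. Named genes were the smallest interaction p, the largest responses, those called in both genotypes, fixed early and dopamine genes, and the extreme members of each list. A few others (Pmch, Hyou1, Xbp1 and further list members) were chosen after their values were seen. The members and lists were chosen with earlier results of these data known. Nothing says beyond mouse numbers how replicates were raised, so p-values measure the spread between these samples. Gene reads were counted by the GeneCounts mode of STAR, per the methods. Its strand setting was not given in the sources used here, and without strand overlapping genes mix.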

Additional observations from a re-analysis of the deposited data

How the results depend on the processing

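No paired analysis was possible because the compared groups share no mouse numbers. With 1 mouse left out at a time, genes called ranged from 1325 (without wild-type morphine mouse 1.2) to 4203 (without 1.1) in wild-type mice, from 130 (without Vdr-/- morphine mouse 2.1) to 2234 (without wild-type morphine mouse 1.1) in Vdr-/- mice, and from 0 to 51 (without Vdr-/- PBS mouse 8) for the interaction. Pearson r ranged from 0.425 (without Vdr-/- PBS mouse 8) to 0.704 (without mouse 9). Interactions that changed sign ranged from -0.12 to 0.23 for Fosb, -0.072 to 0.74 for Fosl2, -0.0013 to 0.24 for Nfil3, -0.037 to 0.25 for Npas4, -0.060 to 0.22 for Oprd1, -0.22 to 0.0024 for Sik1 and -0.090 to 0.22 for Zbtb16.

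With the tables normalized apart as deposited, all genes shifted by a median of -0.29 in both genotypes, 9453 genes were called in wild-type (407 higher) and 8855 in Vdr-/- mice (156 higher), and the wild-type response of Pnpla3 was -0.016. Without a filter r was 0.414. limma without a trend called 674 genes in Vdr-/- mice. DESeq2 called 51 interactions. Fosb had an interaction of -0.027 in edgeR and -0.029 in DESeq2. Fitting each response on its own 6 libraries called 2001 genes in wild-type mice. Without wild-type PBS mouse 3 and Vdr-/- PBS mouse 8, 1972 and 840 genes and 9 interactions were called and r was 0.478, with interactions of -0.11 for Fosb, -0.10 for Npas4, -0.048 for Zbtb16, -0.073 for Oprd1 and -0.067 for Nfil3.

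The dopamine neuron covariate left 0 genes called in wild-type and 854 in Vdr-/- mice, with r of 0.438, a wild-type response of 0.0077 for Tmem207 and interactions of 0.24 for Egr1, 0.0045 for Sik1, 0.42 for Pdyn, -0.0037 for Zbtb16, 0.19 for Gpr6, -0.36 for Cyp27a1, -0.21 for Grin2a and 0.28 for Gabrd. The hypothalamus covariate left 20 and 793 genes, with interactions of -0.28 for Fosl2, -0.32 for Nr4a3, -0.19 for Zbtb16, -0.044 for Oprd1, -1.53 for Slc17a7 and -0.29 for Grin2a. The cause of these changes was not tested. Over all alternatives, 4326 values for single genes and lists kept their direction and side of the threshold, 256 kept their direction but no longer passed, 29 newly passed, 59 moved by more than their limit and 40 reversed. Of the main results, 84 values stayed and 28 moved.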

Other observations

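Subunits of oxidative phosphorylation had close median responses in both genotypes. Of 32, 10 fell and 1 rose in wild-type mice and 6 fell and 1 rose in Vdr-/- mice, 4 falling in both, with median log2 responses of -0.16 and -0.15. Over all genes 9.79% fell and 9.35% rose in wild-type mice and 4.08% fell and 4.06% rose in Vdr-/- mice. With 1 mouse left out, 3 (without wild-type PBS mouse 1 or morphine mouse 1.2) to 18 (without 1.1) fell in wild-type mice, and 1 (without Vdr-/- PBS mouse 7 or morphine mouse 2.1) to 12 (without wild-type morphine mouse 1.1) in Vdr-/- mice. Of 23 genes of cholesterol synthesis, 4 rose and 1 fell in wild-type mice and 4 rose in Vdr-/- mice, 1 of them in both, with medians of 0.11 in each genotype. Interferon-stimulated genes had lower medians with morphine, -0.60 in wild-type and -0.35 in Vdr-/- mice, and of 21 genes 3 fell in each genotype, none of them in both, and 1 rose in Vdr-/- mice. Of 9 mitochondrial transcripts, 3 rose in both genotypes and 1 fell in both.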
